A study of Mus musculus with 12 samples.

Results

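The genes described here encode transporters that carry metal ions or heme across membranes. They are the protein-coding mouse genes whose symbol begins with Slc11a, Slc30a, Slc31a, Slc39a, Slc40a, Slc41a, Slc48a or Cnnm. The rule found 37 genes among 55416 gene identifiers, and 34 of them had enough reads to be tested, among 17702 tested genes. By role, 10 were Slc30a genes (ZnT), 14 were Slc39a genes (ZIP), 3 carry iron (Slc11a1, Slc11a2, Slc40a1), 2 carry copper (Slc31a1, Slc31a2), 1 carries heme (Slc48a1) and 7 belong to the magnesium families Slc41a and Cnnm.

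ZnT proteins mostly move zinc out of the cytosol, either across the plasma membrane or into organelles, and ZIP proteins move it into the cytosol. Slc30a10, counted here with the ZnT genes, carries manganese. Slc11a2 (DMT1) brings ferrous iron into the cytosol, Slc40a1 (ferroportin) is the exporter of iron from cells, Slc31a1 (CTR1) is the high-affinity copper importer, and Slc48a1 (HRG1) moves heme out of endosomes and lysosomes. All are proteins with several membrane-spanning segments. Most mRNAs for proteins of this kind are translated by ribosomes on the endoplasmic reticulum (ER), from where the proteins are sorted to their membranes, whereas Slc25 carriers of the mitochondrial inner membrane are mostly made in the cytosol.

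RNA was sequenced from E14Tg2a.4 mouse embryonic stem cells, a cell line derived from the inner cell mass, in the line Rpl31-FTA, in which the ribosomal protein Rpl31 carries a FLAG-TEV-AviTag. Ribosomes near the ER were biotinylated in living cells with the ALIBi proximity-labelling reagent and purified, and poly-A RNA bound to them was sequenced. The lysates that entered the purification also gave whole-cell RNA. The 4 groups were ER-bound RNA from cells given Lsg1 siRNA, ER-bound RNA from cells given scramble siRNA, whole-cell RNA from Lsg1 siRNA cells and whole-cell RNA from scramble siRNA cells, with 3 biological replicates in each, and all carried the tagged Rpl31. Lsg1 encodes a GTPase that acts late in the maturation of the large ribosomal subunit.

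Libraries held 38092178 to 56522114 reads assigned to genes. Lsg1 itself had, after its siRNA, a log2 fold of -1.77 in ER-bound RNA (SE 0.11, adjusted p = 6.28e-08, edgeR) and of -0.55 in whole-cell RNA (SE 0.10, adjusted p = 0.245, edgeR), the second not past the threshold of 0.05. All 8 stem cell markers examined stood at 1 CPM (a gene's reads scaled to a common library total) or more in every library. So did all 4 neural markers and 4 of 7 primitive endoderm markers. Summed levels over all libraries were 7550 to 10500 CPM for the stem cell markers. They were 96.2 to 117 CPM for the neural and 11.5 to 12.9 CPM for the primitive endoderm markers. The summed level of 8 fibroblast or feeder markers was 52.3 to 58.3 CPM in ER-bound RNA with Lsg1 siRNA and 47.9 to 55.3 CPM in ER-bound RNA with scramble siRNA, against 27.3 to 28.9 CPM and 27.1 to 30.0 CPM in the whole-cell RNA of the same cells, with Lum at 0 throughout; the part of this in the fraction results was not tested. In such bulk samples, fewer cells of a type and less RNA per cell cannot be told apart.

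Slc30a1 encodes the ZnT exporter of zinc at the plasma membrane and is a known target of the zinc-sensing factor MTF-1, which binds metal response elements. The window from 250 bases before to 50 bases after its start is shown because of that known regulation. It held 2 cores of such elements, in capitals, read on the opposite strand as TGCACNC and TGCGCNC (RefSeq, GRCm38.p6, chr1:191906531-191906830, plus strand).
Slc30a1: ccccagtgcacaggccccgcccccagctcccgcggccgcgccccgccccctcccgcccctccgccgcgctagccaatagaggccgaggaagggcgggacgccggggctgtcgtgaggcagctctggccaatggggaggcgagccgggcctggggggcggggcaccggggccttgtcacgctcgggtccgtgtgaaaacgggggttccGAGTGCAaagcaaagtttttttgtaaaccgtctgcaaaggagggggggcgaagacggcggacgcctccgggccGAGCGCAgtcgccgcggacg
Either core was sought on both strands and allowed to overlap. It was found in 19 of 35 windows of the 30 transporter genes with an entry, which is 54.3%. Over all genes it was found in 25.7% of 32851 windows, which were not matched to the transporters in GC content or gene type. Slc30a1 did not stand apart in this count: the windows of Slc30a4 and Slc30a10 held 3 cores each, and those of Slc30a2, Cnnm1 and Cnnm4 held 2. The search and the choice of Slc30a1 were made after the expression values had been seen, the choice also with the matches known (Slc39a10, first considered beside it, held none), and a match of letters is not a measured binding site. Mtf1 mRNA, which encodes the factor, averaged 26.3 ± 0.57 CPM in ER-bound RNA and 29.9 ± 0.56 CPM in whole-cell RNA of scramble siRNA cells (SD, n = 3 each).

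Levels were compared between genes as CPM per kilobase of the longest annotated transcript. In whole-cell RNA of scramble siRNA cells the highest were Slc39a10 at 20.1 ± 0.79, Slc39a1 at 16.5 ± 0.21, Slc39a14 at 16.5 ± 0.79, Slc30a5 at 14.6 ± 0.07 and Slc39a4 at 12.8 ± 0.18 CPM per kb (SD, n = 3). Slc39a1 and Slc39a14 did not differ beyond their spread. Slc39a10 and Slc39a14 are ZIP importers at the cell surface, Slc39a14 carrying iron and manganese as well as zinc, and Slc30a5 brings zinc into the early secretory pathway. Slc41a1, a magnesium transporter, stood at 12.6 ± 0.40, Slc31a1 at 11.3 ± 0.08, Slc11a2 at 8.70 ± 0.06 and Slc48a1 at 6.82 ± 0.51 CPM per kb.

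Iron export was represented at a low level. Slc40a1 had 0.476 ± 0.048 CPM per kb in whole-cell RNA of scramble siRNA cells, and Slc11a1, the phagosomal iron and manganese transporter of macrophages, had 0.491 ± 0.032 CPM per kb. These neighbours did not differ beyond their spread. Slc30a8, the zinc transporter of insulin granules, had no read in any library. Slc39a12 and Slc39a5 had too few reads to be tested, with Slc39a5 at 0.118 ± 0.028 CPM in whole-cell RNA of scramble siRNA cells.

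**Figure D1:**
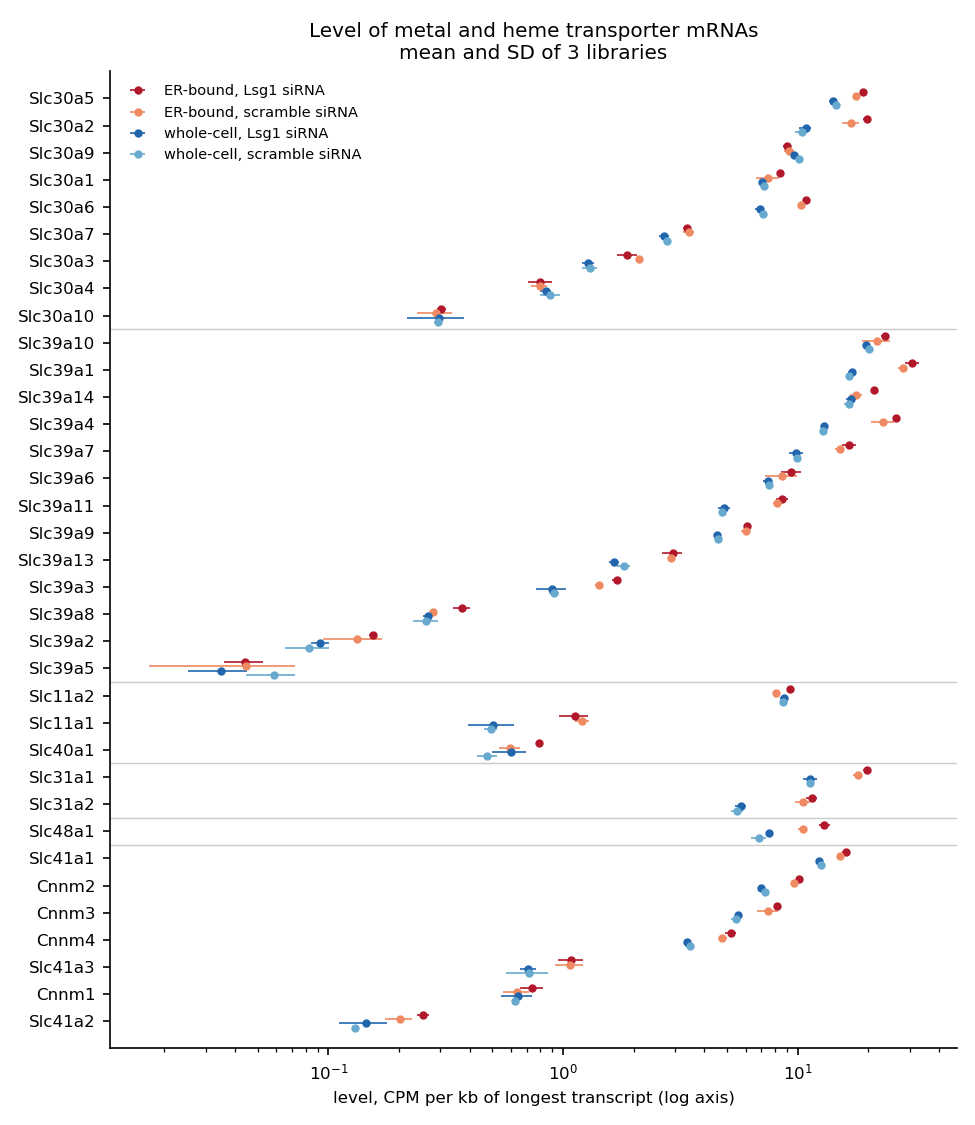
Level of each transporter mRNA except Slc30a8 and Slc39a12, as CPM per kb of its longest transcript on a log axis; points are means and bars SDs of 3 libraries, in the 4 groups, with lines between ZnT, ZIP, iron, copper, heme and magnesium genes. Slc39a10, Slc39a1, Slc39a14 and Slc30a5 stand highest in whole-cell RNA with scramble siRNA, and most genes with over 1 CPM per kb stand further right in ER-bound than in whole-cell RNA.

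The first comparison set ER-bound against whole-cell RNA, which asks which mRNAs were over-represented on ER-labelled ribosomes relative to the cell's whole mRNA pool. Most transporter mRNAs were. With Lsg1 siRNA 29 of 34 were higher in ER-bound RNA and 1 was lower (edgeR quasi-likelihood test, adjusted p under 0.05, where 30.6% of all tested genes were higher and 29.8% lower), and the median log2 fold was 0.55 against 0.02 for all tested genes. With scramble siRNA 23 were higher and 2 lower, where 29.8% of all tested genes were higher and 29.1% lower, with a median of 0.46 against 0.03. Scaling by library totals made those shares 37.8% higher and 23.4% lower with Lsg1 siRNA, and 36.4% higher and 23.4% lower with scramble siRNA.

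The same counts were made for other solute carriers. Of 208 other solute carrier genes outside the Slc25 family, 151 were higher and 6 lower with Lsg1 siRNA (median log2 fold 0.44) and 141 were higher and 6 lower with scramble siRNA (median 0.39). Among 44 Slc25 genes 18 were higher and 11 lower with Lsg1 siRNA (median 0.05), and 15 were higher and 9 lower with scramble siRNA (median 0.07). No test of the difference between these lists was made.

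Both Slc31a genes were higher in ER-bound RNA with either siRNA. Slc31a1 had 85.1, 82.4 and 78.5 CPM in ER-bound RNA against 50.9, 45.4 and 45.0 CPM in whole-cell RNA of Lsg1 siRNA cells, a log2 fold of 0.80 (SE 0.05, adjusted p = 5e-11). With scramble siRNA it had 78.3, 72.0 and 74.3 CPM in ER-bound RNA against 47.3, 46.7 and 46.7 CPM in whole-cell RNA, with a log2 fold of 0.68 (adjusted p = 6.02e-10, SE 0.05). The groups did not overlap. Slc31a2, a relative of Slc31a1 found on endosomes, averaged 20.9 ± 1.1 CPM in ER-bound RNA and 10.4 ± 0.53 CPM in whole-cell RNA of Lsg1 siRNA cells (SD, n = 3 each), a log2 fold of 1.00. With scramble siRNA it averaged 19.0 ± 1.4 CPM in ER-bound RNA and 10.0 ± 0.58 CPM in whole-cell RNA, a log2 fold of 0.93.

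All 12 tested ZIP genes were higher in ER-bound RNA with Lsg1 siRNA, and 8 of 12 with scramble siRNA. The shares of all tested genes were 30.6% and 29.8%. Among the ZIP genes Slc39a2 had only 52 reads in ER-bound and 32 in whole-cell RNA with Lsg1 siRNA (adjusted p = 0.0368, edgeR). Its call was lost with the GC and length offset (adjusted p = 0.0934, edgeR), with DESeq2 and when any single Lsg1 siRNA library was left out. Slc39a4, the intestinal zinc importer whose loss causes acrodermatitis enteropathica in people, had 72.8, 73.0 and 70.7 CPM in ER-bound RNA against 34.6, 35.7 and 36.5 CPM in whole-cell RNA of Lsg1 siRNA cells, a log2 fold of 1.02 (SE 0.06, adjusted p = 4.32e-11). With scramble siRNA it had 55.5, 67.8 and 67.9 CPM in ER-bound RNA against 35.6, 35.1 and 34.6 CPM in whole-cell RNA, with a log2 fold of 0.86 (adjusted p = 5.36e-10, SE 0.06). The first ER-bound scramble library stood below the other two but above every whole-cell library.

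Slc39a1, a widely expressed zinc importer, averaged 72.7 ± 4.8 CPM in ER-bound RNA and 40.2 ± 1.4 CPM in whole-cell RNA with Lsg1 siRNA, a log2 fold of 0.85, and its fold with scramble siRNA was 0.76. Slc39a11 had log2 folds of 0.82 with Lsg1 siRNA and 0.78 with scramble siRNA, and Slc39a3 had 0.90 with Lsg1 siRNA and 0.64 with scramble siRNA. Slc39a7, the ZIP protein of the ER membrane itself, averaged 40.4 ± 2.9 CPM in ER-bound RNA and 24.0 ± 1.6 CPM in whole-cell RNA with Lsg1 siRNA, a log2 fold of 0.75, and 0.60 with scramble siRNA. All of these passed the test.

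Smaller folds were seen for Slc39a10 and Slc39a14, which stood high in level. Slc39a10 had 128.0, 133.7 and 125.9 CPM in ER-bound RNA against 108.0, 104.4 and 110.8 CPM in whole-cell RNA with Lsg1 siRNA, a log2 fold of 0.26 (SE 0.07, adjusted p = 0.00232). With scramble siRNA it had 101.5, 128.2 and 130.5 CPM in ER-bound RNA against 107.4, 108.5 and 115.4 CPM in whole-cell RNA, and the log2 fold of 0.12 did not pass the test (SE 0.07, adjusted p = 0.134). The first of those ER-bound libraries lay below all 3 whole-cell libraries, and without it the log2 fold was 0.22 (adjusted p = 5.37e-05, edgeR). Slc39a10 also passed with the GC and length offset (0.34, adjusted p = 4.46e-05), with library totals (0.20, adjusted p = 0.0099) and without a low-count filter (0.13, adjusted p = 0.00967). Slc39a14 had a log2 fold of 0.32 with Lsg1 siRNA (SE 0.05, adjusted p = 9.47e-06), and of 0.11 with scramble siRNA (SE 0.05, adjusted p = 0.0476), which was lost without the first whole-cell scramble library (0.06, adjusted p = 0.371) with DESeq2 (0.10, adjusted p = 0.104) and in 15 of 24 alternatives in all.

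Among 9 tested ZnT genes 6 were higher and 1 lower in ER-bound RNA with Lsg1 siRNA, and 5 were higher and 1 lower with scramble siRNA. The shares of all tested genes were 30.6% higher and 29.8% lower with Lsg1 siRNA, and 29.8% and 29.1% with scramble siRNA. Slc30a2, which loads zinc into vesicles, had 59.8, 63.5 and 63.4 CPM in ER-bound RNA against 31.8, 34.3 and 35.8 CPM in whole-cell RNA of Lsg1 siRNA cells, a log2 fold of 0.87 (SE 0.06, adjusted p = 3.58e-10). With scramble siRNA the log2 fold was 0.70 (SE 0.06, adjusted p = 9.37e-09). Slc30a5 and its heterodimer partner Slc30a6 had log2 folds of 0.41 and 0.65 with Lsg1 siRNA and of 0.28 and 0.54 with scramble siRNA, all past the test.

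Slc30a9 ran the other way and was the only ZnT gene called lower. Slc30a4 also had log2 folds below 0, of -0.075 with Lsg1 siRNA and -0.15 with scramble siRNA, neither past the test. The Slc30a9 protein is the ZnT member known from human cells as a mitochondrial zinc transporter. It had 53.2, 52.1 and 49.1 CPM in ER-bound RNA against 56.7, 54.7 and 54.7 CPM in whole-cell RNA with Lsg1 siRNA, a log2 fold of -0.10 (SE 0.04, adjusted p = 0.0318). With scramble siRNA it had 52.0, 55.0 and 50.2 CPM in ER-bound RNA against 57.9, 57.5 and 57.4 CPM in whole-cell RNA, with a log2 fold of -0.14 (adjusted p = 0.00617, SE 0.04). The groups did not overlap in either, yet an offset for GC content and transcript length turned the sign, to 0.12 with Lsg1 siRNA (adjusted p = 0.00861) and 0.11 with scramble siRNA (adjusted p = 0.0184).

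Of the iron transporters, Slc11a1 had the largest log2 fold of the 34, at 1.14 with Lsg1 siRNA and 1.30 with scramble siRNA, at a low level of 3.05 ± 0.43 CPM in ER-bound RNA against 1.37 ± 0.30 CPM in whole-cell RNA with Lsg1 siRNA. Slc11a2 had a log2 fold of 0.08 with Lsg1 siRNA (SE 0.04, adjusted p = 0.0619) and of -0.11 with scramble siRNA (SE 0.04, adjusted p = 0.0162). With the lysate as a block, the first of these passed the test (0.08, adjusted p = 0.043). The GC and length offset ended the second (-0.07, adjusted p = 0.1), as did scaling by library totals (-0.03, adjusted p = 0.515).

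Slc48a1, the heme transporter, averaged 33.0 ± 1.8 CPM in ER-bound RNA and 19.1 ± 0.29 CPM in whole-cell RNA with Lsg1 siRNA, a log2 fold of 0.79 (SE 0.05, adjusted p = 3.96e-10). With scramble siRNA it averaged 26.6 ± 1.1 CPM in ER-bound RNA and 17.3 ± 1.3 CPM in whole-cell RNA, a log2 fold of 0.62 (SE 0.05, adjusted p = 1.7e-08). Its exons overlap those of Hdac7 on the opposite strand, whose log2 folds were -0.18 with Lsg1 siRNA and -0.15 with scramble siRNA, neither past the test, at a mean level of 6.03 CPM. The library kit keeps strand, but the strand setting of the counting is not given in the sources used here.

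In the magnesium families 6 of 7 genes were higher in ER-bound RNA with either siRNA, the exception being Cnnm1. Of all tested genes 30.6% were higher with Lsg1 siRNA and 29.8% with scramble siRNA. Slc41a1 averaged 75.5 ± 2.8 CPM in ER-bound RNA and 57.6 ± 1.4 CPM in whole-cell RNA with Lsg1 siRNA, a log2 fold of 0.39, and 0.27 with scramble siRNA. Cnnm2, Cnnm3 and Cnnm4, the cyclin M proteins, had log2 folds of 0.54, 0.55 and 0.62 with Lsg1 siRNA and of 0.40, 0.46 and 0.46 with scramble siRNA. Cnnm1 had 0.20 with Lsg1 siRNA (adjusted p = 0.165) and 0.03 with scramble siRNA (adjusted p = 0.877, edgeR).

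**Figure D2:**
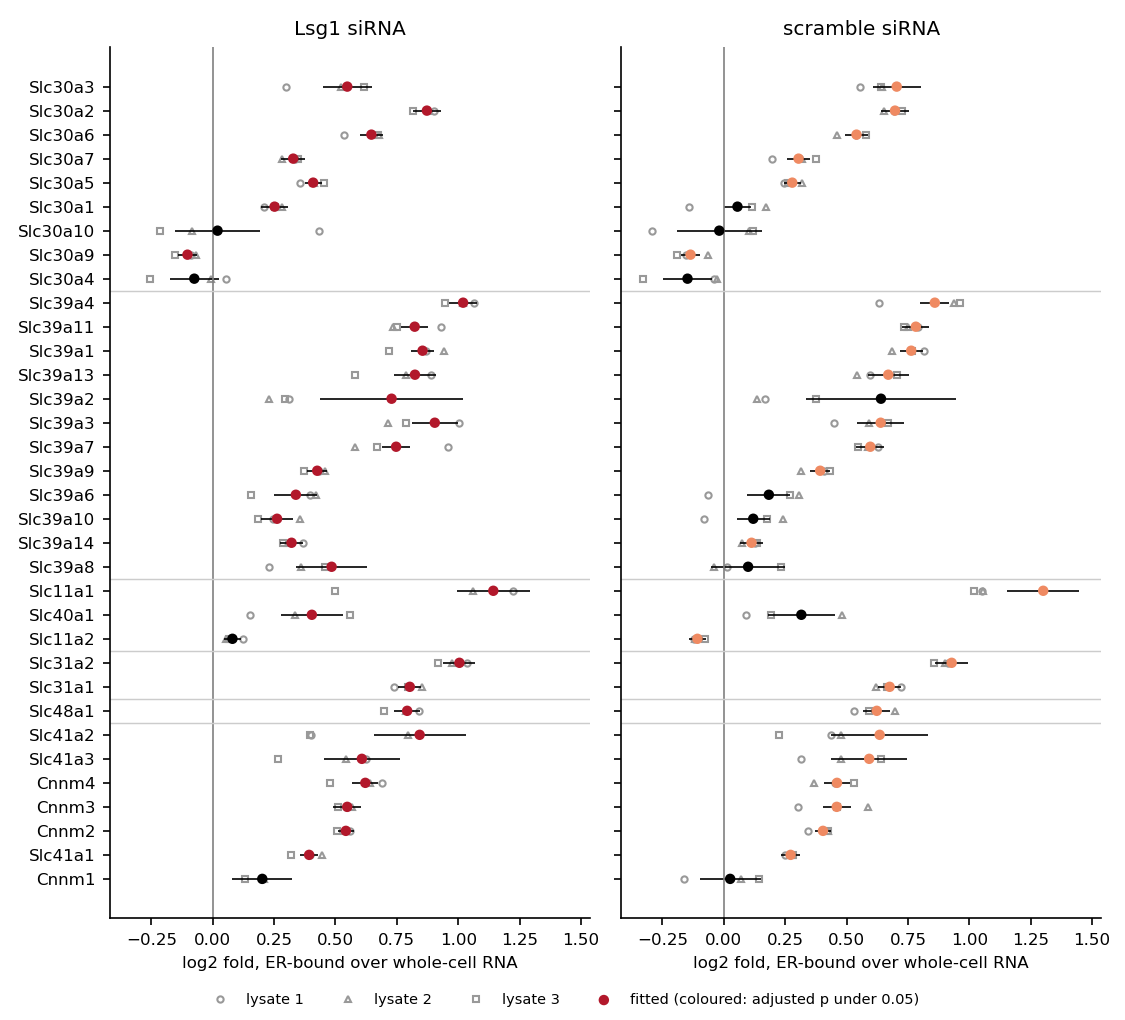
Log2 fold of ER-bound over whole-cell RNA for the 34 tested transporters; filled points are fitted values with SE (coloured where adjusted p is under 0.05), and open symbols are the differences of log2(CPM + 0.5) between the fractions of each of 3 lysates, which lie nearer 0 for genes of few reads. Points lie right of 0 for 32 of 34 genes with Lsg1 siRNA and 30 of 34 with scramble siRNA, with Slc30a9 and Slc30a4 left of it in both. Over all tested genes the shares above 0 were 52.0% with Lsg1 siRNA and 52.9% with scramble siRNA.

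Fold and transcript length varied together among the transporters. Over the 34 genes, the log2 fold between fractions and the log2 length of the longest transcript had a Pearson r of -0.69 (Spearman rho -0.72) with Lsg1 siRNA and of -0.71 (rho -0.74) with scramble siRNA, given as a description, since all genes share the same libraries. Over 14679 tested protein-coding genes r was -0.34 with Lsg1 siRNA and -0.38 with scramble siRNA, and over the 208 other solute carriers it was -0.41 and -0.45. GC content of the transcript had r of 0.47 with Lsg1 siRNA and 0.49 with scramble siRNA over the 34 genes. With the GC and length offset the median fold of the 34 was 0.57 with Lsg1 siRNA and 0.44 with scramble siRNA. The medians thus moved little, and no transporter was then called lower. Single genes moved further and in both directions. With scramble siRNA Slc30a7, whose transcript is the longest at 9020 bases, went from 0.30 to 0.79, and Slc39a4 from 0.86 to 0.65.

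**Figure D3:**
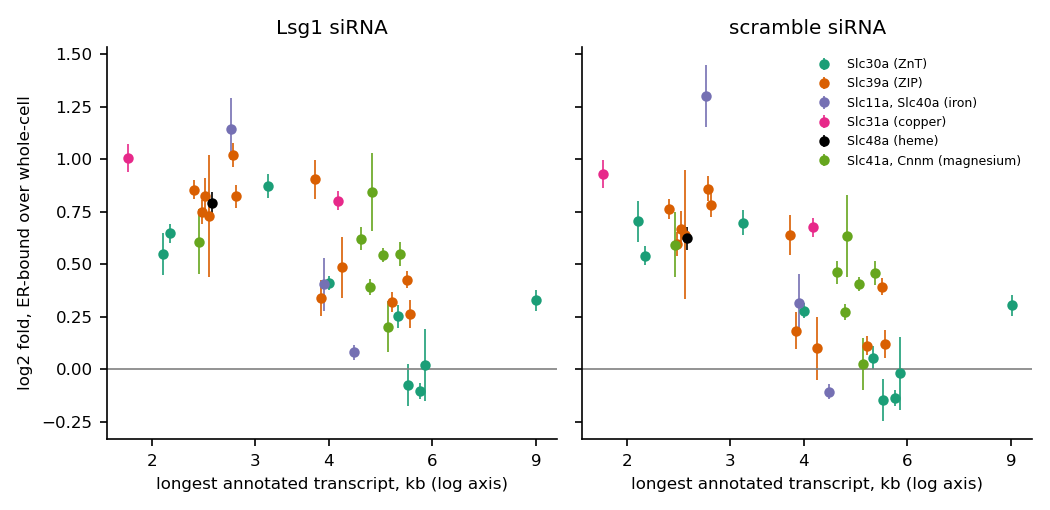
Log2 fold of ER-bound over whole-cell RNA (SE bars) against the length of the longest annotated transcript on a log axis, for the 34 tested transporters coloured by family. Folds are higher for short transcripts such as Slc31a2 (0.93 with scramble siRNA) than for long ones such as Slc30a9 (-0.14).

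Other genes of metal handling, from lists chosen with earlier results known, moved in both directions. For scale, 30.6% of all tested genes were higher and 29.8% lower with Lsg1 siRNA, and 29.8% and 29.1% with scramble siRNA. Of 16 tested genes of iron uptake, storage and sensing, 7 were higher and 6 lower in ER-bound RNA with Lsg1 siRNA, and 7 were higher and 7 lower with scramble siRNA. The membrane proteins Steap1 and Steap3 had log2 folds of 1.16 and 0.87 with Lsg1 siRNA and of 0.89 and 0.64 with scramble siRNA. Several mRNAs for cytosolic proteins were lower, and with scramble siRNA the folds were -0.71 for the iron regulatory protein Ireb2, -0.45 for Aco1, -0.33 for the ferritin light chain Ftl1 and -0.51 for Ncoa4, the receptor for ferritin breakdown. Tfrc, the transferrin receptor, had -0.11 with Lsg1 siRNA (adjusted p = 0.0891) and -0.25 with scramble siRNA (adjusted p = 0.000692).

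Of 21 genes of heme synthesis, export and breakdown, 13 were higher and 6 lower in ER-bound RNA with Lsg1 siRNA, and 12 were higher and 4 lower with scramble siRNA. The membrane heme-binding proteins Pgrmc1 and Pgrmc2 had log2 folds of 1.15 and 1.02 with Lsg1 siRNA, and Alas1, the first enzyme of heme synthesis, which sits in mitochondria, had -0.32. Of 10 copper genes 7 were higher and 1 lower with either siRNA, the lower one being the copper pump Atp7a (-0.32 with Lsg1 siRNA and -0.34 with scramble siRNA). Of 21 identifiers for magnesium, calcium and manganese handling, 14 were higher and 3 lower with either siRNA. The zinc-binding metallothioneins Mt1 and Mt2 had log2 folds of 0.08 and 0.00 with Lsg1 siRNA, neither past the test, and with scramble siRNA Mt1 passed at 0.11.

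The second comparison set Lsg1 siRNA against scramble siRNA within a fraction. In ER-bound RNA 4 transporters rose, Slc48a1, Slc11a2, Slc39a14 and Slc30a2, and none fell (adjusted p under 0.05, where 2.63% of all tested genes were higher and 1.38% lower). The rises were small, between 1.14-fold and 1.24-fold. The median log2 fold of the 34 was 0.13, against 0.01 for all tested genes and 0.08 for the 208 other solute carriers, of which 14 rose and 1 fell. Of the 34, 30 had a fold above 0, as did 53.4% of all tested genes and 73.1% of the 208 other solute carriers.

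Slc48a1 had 34.3, 33.9 and 30.9 CPM in ER-bound RNA of Lsg1 siRNA cells, against 27.3, 27.0 and 25.3 CPM in that of scramble siRNA cells. The groups did not overlap, and the log2 fold was 0.32 (SE 0.05, adjusted p = 0.00193). In whole-cell RNA it had 18.9, 19.4 and 18.9 CPM with Lsg1 siRNA, against 18.8, 16.5 and 16.6 CPM with scramble siRNA, a log2 fold of 0.15 (SE 0.06, unadjusted p = 0.0207 and adjusted p = 1.0, edgeR). Hdac7, on the opposite strand, had a log2 fold of 0.01 in ER-bound RNA (adjusted p = 0.972).

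Slc11a2 had 40.5, 41.5 and 40.4 CPM in ER-bound RNA of Lsg1 siRNA cells, against 35.0, 35.4 and 36.6 CPM in that of scramble siRNA cells. The log2 fold was 0.19 (SE 0.04, adjusted p = 0.00461) without overlap. In whole-cell RNA it had 37.1, 40.0 and 38.5 CPM with Lsg1 siRNA, against 38.1, 38.5 and 38.6 CPM with scramble siRNA, and the groups overlapped.

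Slc39a14 had 106.1, 107.6 and 111.1 CPM in ER-bound RNA of Lsg1 siRNA cells, against 87.7, 88.5 and 97.1 CPM in that of scramble siRNA cells, a log2 fold of 0.25 (SE 0.05, adjusted p = 0.005). Slc30a2 had 59.8, 63.5 and 63.4 CPM with Lsg1 siRNA, against 50.1, 51.3 and 58.2 CPM with scramble siRNA, a log2 fold of 0.23 (SE 0.06, adjusted p = 0.03). In both the third scramble library was nearest to the Lsg1 siRNA libraries, and the groups did not overlap. Without the second ER-bound scramble library, Slc39a14 had 0.22 (adjusted p = 0.0538) and Slc30a2 had 0.19 (adjusted p = 0.18), leaving 2 transporters called. The Slc30a2 call was also lost without any 1 of 6 other libraries, listed with the processing results.

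**Figure D4:**
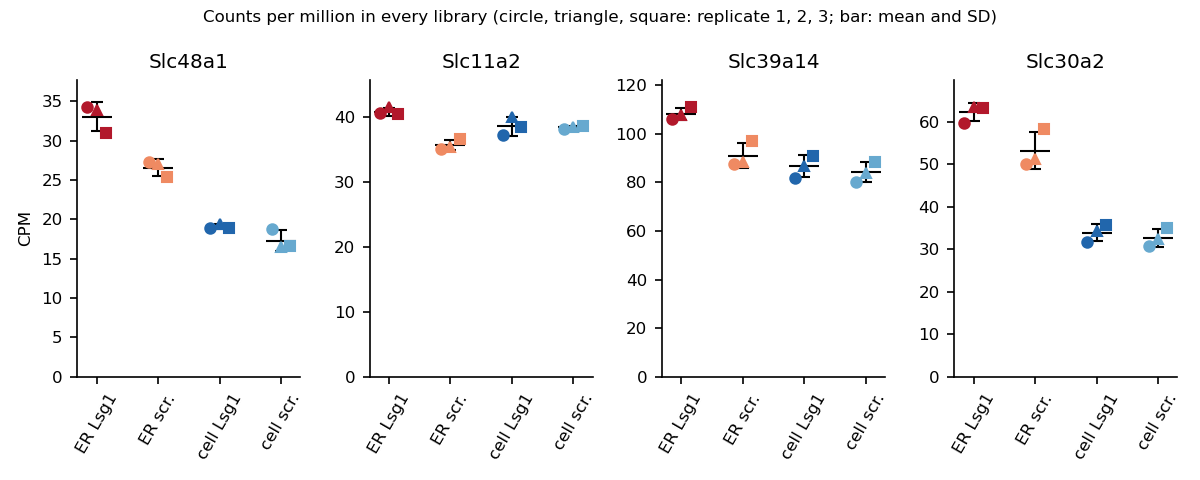
CPM of Slc48a1, Slc11a2, Slc39a14 and Slc30a2 in every library (ER-bound RNA with Lsg1 and with scramble siRNA, then whole-cell RNA with Lsg1 and with scramble siRNA), on axes from 0, with the mean and SD of 3. In ER-bound RNA the Lsg1 siRNA libraries lie above the scramble siRNA libraries for each gene, and in whole-cell RNA Slc11a2, Slc39a14 and Slc30a2 overlap between siRNAs.

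The folds of 3 low-level genes were larger without passing the test. Slc40a1 had 3.08, 3.12 and 3.09 CPM in ER-bound RNA of Lsg1 siRNA cells, against 2.06, 2.53 and 2.40 CPM in that of scramble siRNA cells, a log2 fold of 0.41 (SE 0.13, adjusted p = 0.0763). In whole-cell RNA its log2 fold was 0.32 (SE 0.14, unadjusted p = 0.031, adjusted p = 1.0). Slc39a8, a ZIP importer of manganese, zinc and iron, had 1.46, 1.51 and 1.71 CPM in ER-bound RNA with Lsg1 siRNA, against 1.19, 1.12 and 1.20 CPM with scramble siRNA, with a log2 fold of 0.41 (adjusted p = 0.117, SE 0.14). Slc41a2, of the magnesium families, averaged 1.20 ± 0.07 CPM with Lsg1 siRNA and 0.955 ± 0.12 CPM with scramble siRNA (SD, n = 3 each), a log2 fold of 0.33 (SE 0.17, adjusted p = 0.35, edgeR). The 3 genes are named here because their folds were the largest of the 34, seen after the fit.

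For Slc39a10 the first ER-bound scramble library set the value. Its log2 fold was 0.11 (SE 0.07, adjusted p = 0.452) and -0.01 without that library (adjusted p = 0.941). The median fold of the 34 transporters in ER-bound RNA was 0.07 without it, with 26 of 34 above 0.

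In whole-cell RNA no transporter passed the test, and none of the 17702 genes did, 0% of the tested genes in either direction. At an unadjusted p under 0.05 there were 2 transporters, Slc48a1 and Slc40a1, and 731 genes in all, and DESeq2 and limma-voom called no transporter. The median log2 fold of the 34 was -0.0015 (17 above 0 and 17 below). In simulated libraries of this design the test found 67.2% of genes changed 1.23-fold in whole-cell RNA and 68.7% in ER-bound RNA. Other genes were changed there by up to 2-fold at once, which eases the adjusted threshold. The 67.2% therefore does not give the power in the real whole-cell RNA, where no gene passed. In that RNA Lsg1 itself, at a log2 fold of -0.55, had an adjusted p of 0.245 (edgeR).

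**Figure D5:**
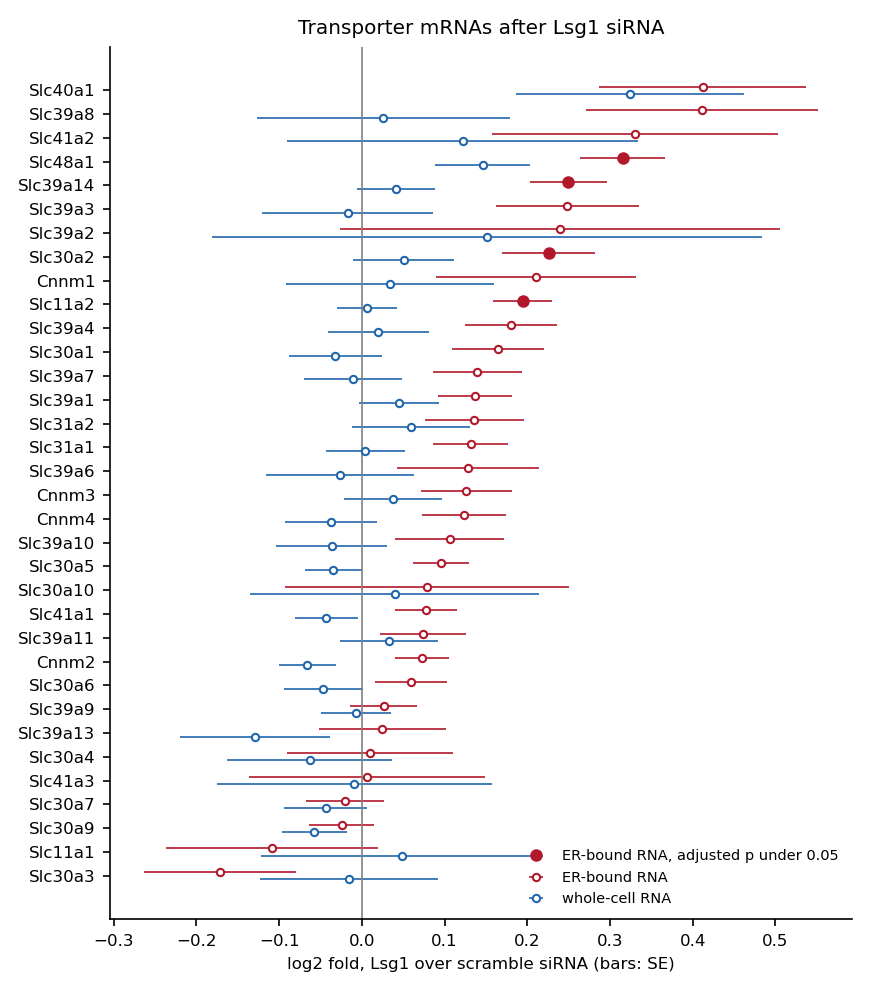
Log2 fold of Lsg1 over scramble siRNA (SE bars) for the 34 tested transporters in ER-bound RNA (red) and whole-cell RNA (blue), ordered by the fold in ER-bound RNA. Filled points mark the 4 that passed the test in ER-bound RNA, and 30 of 34 red points lie above 0 against 17 of 34 blue ones. Over all tested genes the shares above 0 were 53.4% in ER-bound RNA and 51.1% in whole-cell RNA.

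Whether the siRNA fold differed between fractions was tested as an interaction, which is also the change of the ER-bound over whole-cell fold. No transporter passed (0.0113% of all tested genes were higher and 0.0113% lower), by edgeR, DESeq2 or limma-voom. At an unadjusted p under 0.05 (edgeR) there were 9 of the 34, against 1219 of 17702 tested genes and 26 of 208 other solute carriers. The smallest p was that of Slc11a2, at a log2 difference of 0.19 (SE 0.05, unadjusted p = 0.0018, adjusted p = 0.426, edgeR). Slc39a14 had 0.21 (adjusted p = 0.522), Slc48a1 0.17 (adjusted p = 0.704) and Slc30a2 0.18 (adjusted p = 0.719). The calls in ER-bound RNA and their absence in whole-cell RNA are therefore not shown to differ. In simulated libraries the interaction test found 28.4% of genes changed 1.23-fold, which is likewise not the power here, where few genes passed.

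Among the other metal-handling genes, Steap1 (log2 fold 0.21, adjusted p = 0.00252) and Steap3 (0.26, adjusted p = 0.00361) rose in ER-bound RNA with Lsg1 siRNA, 2 of 16 iron genes. Of 21 magnesium, calcium and manganese identifiers 3 rose, the mitochondrial magnesium channel Mrs2 (0.19), the magnesium transporter Nipa2 (0.19) and the phosphatase Ptp4a3 (0.22), which binds Cnnm proteins. None of the zinc, copper or heme lists passed, and none of these lists had a gene that fell. Tfrc had a log2 fold of 0.20 (adjusted p = 0.0578, edgeR).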

How the data were processed

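The authors deposited 1 table of read counts per gene for each of 12 poly-A RNA-seq libraries. Per the submitters' processing notes these counts come from STAR 2.7.9a and HTSeq 0.11.2 on GRCm39, and DESeq2 is also named there; which annotation release and strand setting they used is not stated there. HTSeq's 5 summary lines were left out (no feature 2.65 to 5.26%, ambiguous 0.97 to 1.16%, not unique 6.09 to 8.23%). Names, biotypes, lengths and GC content came from GENCODE M21 (GRCm38), which named 52135 of 55416 identifiers, holding 99.5% of reads.

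Counts were fitted with edgeR 4.0.16 (R 4.3.3; TMM scaling, filterByExpr, quasi-likelihood F test, prior count 2, 8 residual degrees of freedom) over 17702 genes and 4 group means, with Benjamini-Hochberg adjustment over all of them and a threshold of 0.05. DESeq2 1.42.0, limma-voom 3.58.1 and other scalings, filters, offsets and libraries were alternatives, and the test was checked on simulated counts. CPM are TMM-scaled. Fractions share lysates, per the series' design text, so the lysate can pair them. The transporters, gene lists and role groups were chosen with earlier results of these data known. Genes given most values were those called for the siRNA, those of largest and smallest fraction fold at a mean of 5 CPM or more, the highest per role, and known metal-regulated genes; others were added after their values were seen.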

Additional observations from a re-analysis of the deposited data

How the results depend on the processing

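Over 1080 alternative values of the 15 transporters described most fully, 1011 kept direction and side of the threshold. With scramble siRNA the count called higher between fractions was 22 to 28 when 1 library was left out (28 without the first ER-bound library), against 23. The count called lower, 2, was 0 with library totals and with the GC and length offset, with or without the replicate block, and 1 without a low-count filter. With Lsg1 siRNA the counts were 28 to 29 higher and 0 to 1 lower over the same omissions, against 29 and 1, and the lower count was 0 with library totals and with the offset, with or without the block. Slc30a9 reversed with the offset and the block together (0.12 with Lsg1 siRNA, 0.10 with scramble siRNA) as with the offset alone (0.12 and 0.11). Slc30a1 between fractions with scramble siRNA was 0.06, and -0.0173 to 0.139 with 1 library left out (lowest without the second ER-bound library, highest without the first); it was called higher at 0.24 with the offset, with or without the block, and at 0.13 with library totals. Slc39a10 in ER-bound RNA, Lsg1 over scramble siRNA, was -0.00914 to 0.155 with 1 library left out (lowest without the first scramble library) and -0.00923 without that library's whole lysate, an alternative chosen after seeing the data. The cause was not tested.

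The count of 4 rising in ER-bound RNA was 2 to 5 with 1 library left out. The Slc30a2 call was lost without ER-bound scramble library 1 or 2, ER-bound Lsg1 library 1, 2 or 3, or whole-cell library 2 of either siRNA (adjusted p 0.0505 to 0.18), and with only the compared groups fitted (0.0669, edgeR).

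With the replicate number as a block the count of 4 was 7 (4.23% of all tested genes), adding Slc31a1, Slc39a1 and Slc39a4, and 10 with the offset as well (5.1%). Numbers are not stated to pair the siRNA groups. Over all tested genes the deviations of same-numbered ER-bound libraries correlated at 0.173, 0.00727 and 0.144, so the numbers were not taken to pair them and the block is not used. That verdict depends on the level: of 7 minimum mean levels examined, after the block's calls had been seen, the 3 from 5 CPM upward gave every ER-bound pair over 0.1 (0.376, 0.125 and 0.322 at 5 CPM), and none did for whole-cell RNA. The lysate block between fractions added Slc39a6 with scramble siRNA and Slc11a2 with Lsg1 siRNA and changed no other call.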

Other observations

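Few transporters share exonic sequence with an expressed neighbour. In GENCODE M21, 13 of 37 overlap exons of another gene, 10 of them a gene on the opposite strand. Those whose neighbour exceeded 1 CPM were Slc39a9 with Erh (325.0 CPM), Slc39a13 with Psmc3 (258.0 CPM), Slc48a1 with Hdac7 (6.03 CPM), all on the opposite strand, and Slc39a2 with Mettl17 (16.2 CPM) on the same strand. In the ER-bound over whole-cell comparison with scramble siRNA, the log2 fold of Erh was 0.01 beside 0.39 for Slc39a9, and that of Psmc3 was -0.05 beside 0.67 for Slc39a13. With Lsg1 siRNA, Erh had 0.11 beside 0.43 for Slc39a9, and Psmc3 had -0.10 beside 0.82 for Slc39a13. The processed pseudogene of Slc39a1 had 4 to 8 reads per group of 3 libraries.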
